A study of Brassica rapa subsp. pekinensis with 10 samples.

Results

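The Man-Su cold series comprised 4 of the 10 arrays of a study of Chinese cabbage (Brassica rapa subsp. pekinensis), a leafy crop. They were chosen by their labels: variety Man-Su, cold stress for 15, 30, 60 or 120 min, with 1 array at each time. The comparison set the 60 and 120 min arrays (late) against the 15 and 30 min arrays (early), 2 against 2. Total RNA was hybridised to one-colour Cy3 NimbleGen arrays, and the values are log2 of the deposited RMA intensity of 47548 cabbage features. The rest of the study was a second variety, Shin-Hong, at the same 4 cold times, and 1 array labelled normal for each variety. The sources used here do not state the tissue, the temperature, the plants' age or whether plants were pooled. Each time therefore has no replicate, and the spread within the early or the late pair holds the change over time as well as array error.

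Plants begin to change their transcripts within minutes of chilling. In Arabidopsis, a relative of cabbage in the same family, calcium entry and other early signals are followed by transcription factors of the CBF family, whose transcripts rise in the cold and which then switch on cold-regulated genes that protect membranes and proteins. A cold time course in leaves or seedlings thus usually holds brief early transcripts, which subside, and slower ones, which build up. The features measured here are expressed-sequence-tag clusters. The files used here pair none of their identifiers with a gene name, and 0 identifiers matched the RefSeq gene table, so features are described by their levels and not by their function.

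The 30 min array stood apart from the other Man-Su cold arrays in its background and in its dim features. Its random-sequence control read 5.63 log2 units, against 5.24, 5.23 and 5.26 at 15, 60 and 120 min. The mean of its 5 barcode controls was 8.90, against 8.27, 8.05 and 7.82. All 6 control features were brightest at 30 min. Its dim cabbage features lay lower, with a first decile of 8.87 against 9.15, 9.10 and 9.12, while the medians of the 4 arrays ran only from 12.04 to 12.07. It also correlated more closely, over features, with the arrays labelled Shin-Hong cold (0.945 to 0.961) than the others did (0.920 to 0.951). The 120 min array labelled Shin-Hong stood apart from its own series, with 3107 to 3284 features at least 2-fold from each of the other 3 arrays, which differed among themselves in 125 to 849. The Shin-Hong cold arrays shared these marks of the 30 min array, with a random-sequence control of 5.42 to 5.74, a barcode mean of 8.65 to 8.98 and a first decile of 8.83 to 8.97. The first deciles of the normal arrays were 8.88 and 8.94. Beside the main results that rest on the 30 min array or on the 120 min array labelled Shin-Hong, values without it are given.

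Late cold differed from early cold in no single feature that passed the test. With limma, 0 features were higher and 0 lower late at a Benjamini-Hochberg adjusted p under 0.05, which is 0% of the 47548 tested in either direction, and the smallest adjusted p was 0.923. An unadjusted p under 0.05 was reached by 632 features on the higher side and 1090 on the lower, 3.62% of all. With 1 array left out these counts were 6450 and 2063 without 15 min, 1204 and 783 without 30 min, 1141 and 1289 without 60 min, and 133 and 327 without 120 min, so they and their balance depended on single arrays. The fit had 2 residual degrees of freedom, and an exact permutation of 2 against 2 arrays cannot give a two-sided p below 0.333. The slope per doubling of cold time over the same 4 arrays also called 0 features, with 1503 positive and 1122 negative slopes at an unadjusted p under 0.05. The counts that follow are therefore descriptions by size and order, with no test.

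The mean late level was at least 2-fold above the mean early level in 192 features (0.404% of all) and at least 2-fold below it in 158 (0.332%). The median late minus early difference over all features was 0.02 log2 units. Without the 30 min array, 162 of the 192 and 100 of the 158 kept a difference of at least 2-fold from the 15 min array alone. The 192 held 104 features ordered upward at every step, 66 that were high in the 120 min array alone and 16 that were low in the 30 min array alone, with 25 features in both of the first 2 sets. The 158 held 39 features ordered downward at every step, 51 that were low at 120 min alone and 2 that were high at 30 min alone, with 19 features in both of the first 2 sets. The 30 min array held the most extreme early-side value, the highest, in 113 of the 158 (71.5%). It held the lowest such value in 54 of the 192 (28.1%). Outside these shapes and the clean separations given next were 76 of the 158 and 29 of the 192. A clean separation was rare. In 10 features (0.021%) the dimmer late array was at least 2-fold above the brighter early array, and in 15 (0.0315%) the brighter late array was at least 2-fold below the dimmer early array. With 1 array fewer to separate, the counts were 957 and 155 without 15 min, 131 and 25 without 30 min, 357 and 307 without 60 min, and 14 and 41 without 120 min.

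The distances between arrays did not follow the clock. The closest pair was 15 and 60 min, with 256 features at least 2-fold apart and an SD of the log2 differences of 0.26. The 15 and 30 min arrays, adjacent in time, were the farthest apart by count, with 2963 features, of which 2640 were lower at 30 min. From 30 to 60 min the balance was the other way, with 1816 features higher and 336 lower. The 120 min array differed from the 60 min array in 709 features (452 higher, 257 lower) and from the 15 min array in 1228 (842 higher, 386 lower). By these counts the early pair, which serves as 1 side of the comparison, was wider than any late-against-early pair. The 30 and 120 min arrays came next, with 2588 features (1780 higher, 808 lower). By SD that pair was the wider, at 0.485 against 0.464 for 15 and 30 min.

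**Figure D1:**
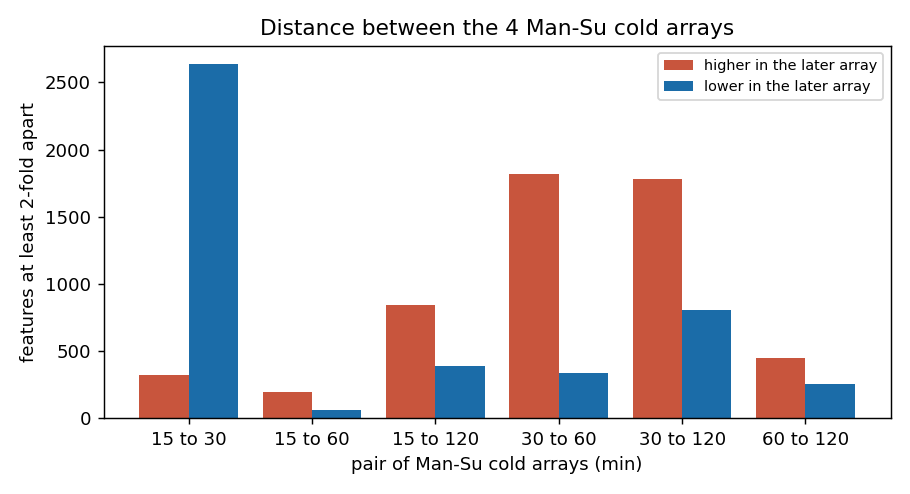
Number of features at least 2-fold apart (vertical axis) for each of the 6 pairs of Man-Su cold arrays, labelled by their cold times in min on the horizontal axis. Red bars count features higher in the later array and blue bars those lower. The 15 to 30 min pair has 2640 lower features, and the 15 to 60 min pair has 193 higher and 63 lower.

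Features ordered in 1 direction throughout were kept apart from the changes of the 30 min array. A feature was taken as ordered when its 3 steps (15 to 30, 30 to 60 and 60 to 120 min) had the same sign and its 120 and 15 min values were at least 1 log2 unit, or 2-fold, apart. By this rule 316 features (0.665% of all) were ordered upward and 119 (0.25%) downward. Among the 5275 features whose values spanned at least 2-fold, these made up 5.99% and 2.26%. The commonest order there held 23.4%, with the 30 min value lowest, followed upward by 120, 60 and 15 min. Whether the upward or downward share exceeds what changes unrelated to time would give was not tested. At the threshold, the upward feature just inside had a 120 minus 15 min difference of 1.01 log2 units and the nearest outside 0.999. The downward ones differed by 1.003 just inside and by 0.997 just outside. A further 2426 features were ordered upward and 2124 downward with smaller spans. None of these ordered features can be a change of the 30 min array alone, because the rule puts the 30 min value between its neighbours. Leaving out an array removes a step from the rule. The upward and downward counts were then 1170 and 733 without 15 min and 703 and 314 without 30 min. They were 699 and 173 without 60 min, and 158 and 36 without 120 min.

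The last step, from 60 to 120 min, was most often the largest. The medians of the 316 features were 11.29, 11.75, 12.07 and 12.84 log2 units at 15, 30, 60 and 120 min, and their median steps were 0.36, 0.28 and 0.67. The step from 60 to 120 min was the largest in 204 of them, the step from 15 to 30 min in 80 and the step from 30 to 60 min in 32. The 119 downward features had medians of 12.82, 12.64, 12.26 and 11.34, with median steps of -0.15, -0.38 and -0.80. Their largest step was again the last in 87 of 119, and it was the first in only 2. The rule sets no least size for a single step. Of the 316 features, 48 were also high in the 120 min array alone, and 31 of the 119 were also low in it alone. In those the first 3 arrays lay within 2-fold of one another, and the span rested on the 120 min array. Over all features the last step was the largest in 33.7%. A closer base is the features ordered at every step with any span. Among these the last step was the largest in 48.1% of the upward and 49.5% of the downward ones. With the 2-fold span the shares were 64.6% and 73.1%. The last interval was also the longest. The median difference between 120 and 15 min was 1.37 log2 units for the upward and -1.28 for the downward features, and the widest spans were 4.15 and -3.47.

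Against the arrays labelled normal, the median of the upward features began near normal and that of the downward ones began above it. The Man-Su cold arrays correlated more closely with the array labelled Shin-Hong normal (0.933 to 0.957) than with the array labelled Man-Su normal (0.928 to 0.931), so levels are set against both. Relative to the average of both normal arrays, the upward features had a median of -0.15 log2 units at 15 min. At that time 121 of the 316 were below both normal arrays and 91 above both, against 13936 and 20105 of all 47548 features. At 120 min their median was 1.36, and 289 of 316 (91.5%) were above both, against 40.6% of all features. The downward features had a median of 0.78 at 15 min, when 90 of 119 (75.6%) were above both normal arrays, against 42.3% of all, and of -0.60 at 120 min, when 77 (64.7%) were below both, against 30.6% of all. The rule sets the 15 and 120 min values at least 2-fold apart, which by itself shifts these shares away from those of all features. It does not fix where normal lies relative to them. How far the shares go beyond what the rule brings was not tested.

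**Figure D2:**
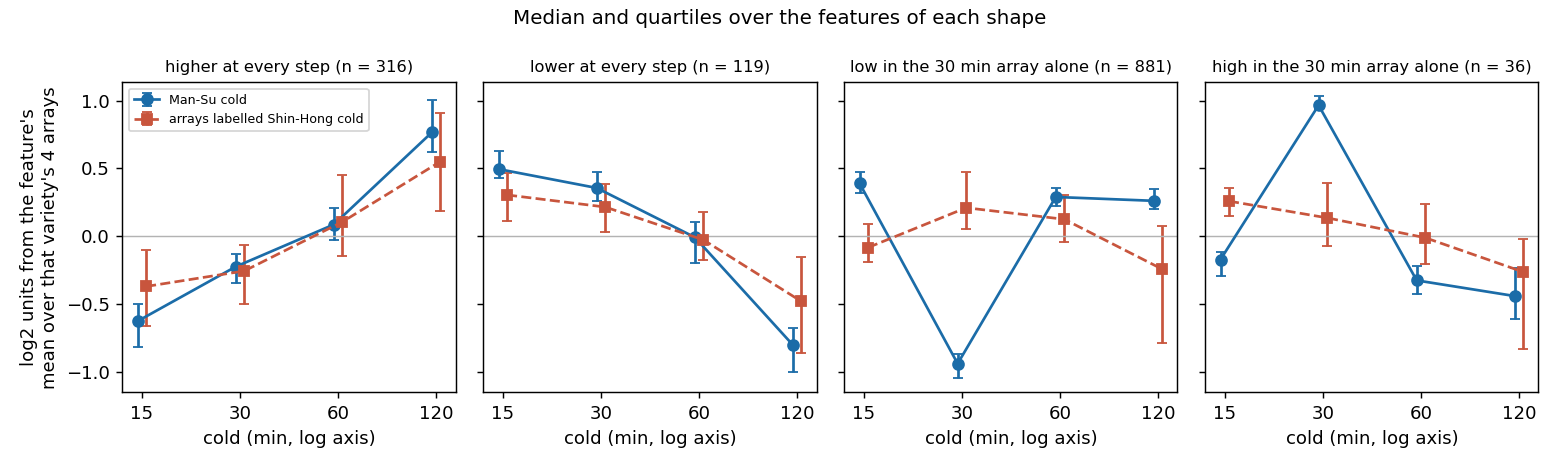
Level of each feature relative to its own mean over the 4 cold arrays of a variety (vertical axis, log2 units) against cold time in min on a log axis, for features higher at every step, lower at every step, low in the 30 min array alone and high in the 30 min array alone. Points are medians and bars the quartiles over features, in blue for Man-Su, which chose the features, and in red for the arrays labelled Shin-Hong cold. The red line follows the blue in the ordered shapes, with Shin-Hong medians of 11.43 to 12.48 log2 units from 15 to 120 min for the upward features, and shows no dip at 30 min.

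The 2 upward features with the widest gap between their nearest late and early arrays were Brapa_ESTC006180 and Brapa_ESTC043701. Candidates had to be ordered at all 3 steps and to lie above the brightest random-sequence control, 5.63 log2 units, in all 4 arrays. Brapa_ESTC006180 read 9.77, 10.54, 12.07 and 12.37 log2 units at 15, 30, 60 and 120 min. The rule itself sets its late arrays above its early ones. Its largest step, 1.53 between 30 and 60 min, is the gap for which it was chosen. Late minus early was 2.07 ± 0.31 log2 units (SE), or 4.19-fold, with a limma adjusted p of 0.923. It read 9.97 and 9.65 in the normal arrays labelled Man-Su and Shin-Hong, so its 15 min value lay between them. Brapa_ESTC043701 read 11.66, 12.12, 13.29 and 13.46 at the 4 times. Its late values were, by the same rule, both above its early ones. Its 15 min value lay within the 11.60 and 11.71 of the normal arrays. Its late minus early difference was 1.48 ± 0.21 log2 units (SE), or 2.80-fold, with a limma adjusted p of 0.923.

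The 2 downward features named by the same rule started high and ended near normal. Brapa_ESTC020370 read 11.39, 10.67, 9.35 and 8.83 log2 units, against 8.64 and 8.56 in the normal arrays labelled Man-Su and Shin-Hong. It was thus far above both normal arrays at 15 min and close to them at 120 min. Its late minus early difference was -1.94 ± 0.33 log2 units (SE), a 3.85-fold difference, with a limma adjusted p of 0.923. Brapa_ESTC012066 read 11.72, 11.52, 10.25 and 9.39, and the normal arrays read 10.87 and 9.33. Both early arrays lay above both normal arrays, and both late arrays lay between them. Late minus early was -1.80 ± 0.32 log2 units (SE), or 3.48-fold, with a limma adjusted p of 0.923.

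The arrays labelled Shin-Hong cold, which had no part in choosing these 4 features, gave the same sign for each. Brapa_ESTC006180 read 9.27, 9.07, 11.01 and 10.99 there at 15, 30, 60 and 120 min, with a late minus early difference of 1.83 ± 0.18 log2 units (SE). Brapa_ESTC043701 read 11.67, 12.07, 12.52 and 13.77, with a difference of 1.27 ± 0.43 (SE). Their late arrays were above their early ones there too, where the rule did not require it. Brapa_ESTC020370 read 10.67, 9.79, 8.34 and 8.42, with a difference of -1.85 ± 0.32 (SE). Brapa_ESTC012066 read 13.33, 12.62, 11.77 and 11.29, with a difference of -1.44 ± 0.31 (SE). It was brighter there than in Man-Su at each time. Without the 120 min array labelled Shin-Hong, 60 min minus early was 1.84, 0.65, -1.89 and -1.20 log2 units for the 4 features in this order (SE 0.15, 0.19, 0.33 and 0.27). Without the 30 min Man-Su array, late minus 15 min was 2.45, 1.71, -2.30 and -1.90 in Man-Su (SE 0.22, 0.20, 0.27 and 0.36), with limma adjusted p of 0.189 to 0.978. The variety by late interaction of these features was -0.36 to 0.24 log2 units with SE of 0.37 to 0.55, and a limma adjusted p of 0.9996 for each.

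**Figure D3:**
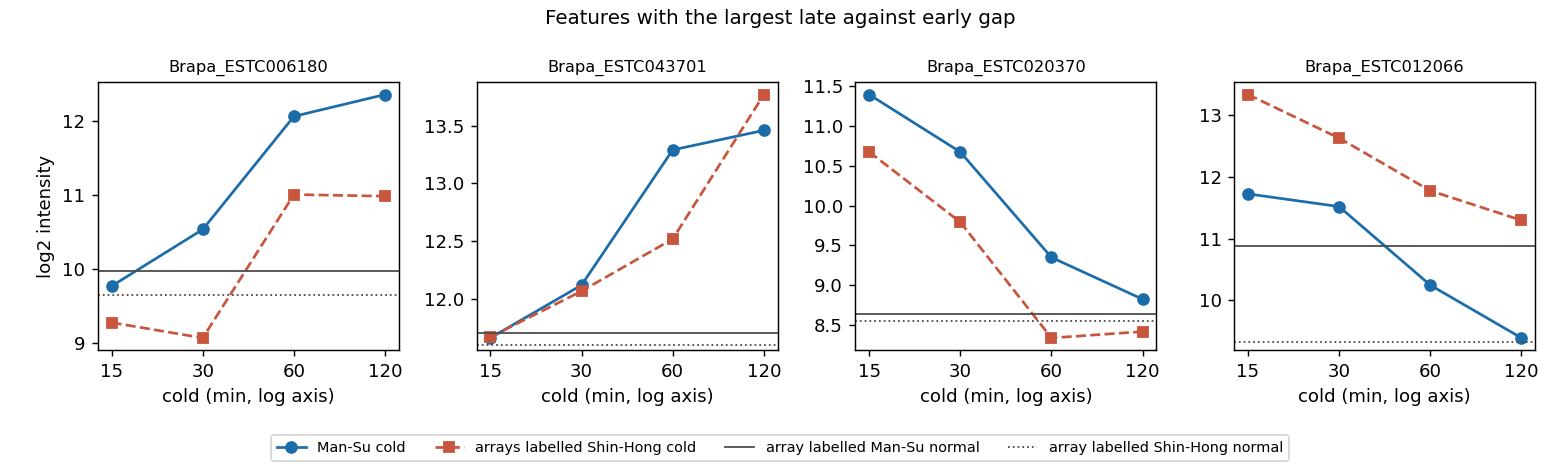
Log2 intensity (vertical axis, a separate range per panel) against cold time in min on a log axis for the 4 named features. Blue circles are the Man-Su cold arrays, red squares the arrays labelled Shin-Hong cold, and horizontal lines the 2 normal arrays; each point is 1 array. Brapa_ESTC020370 goes from 11.39 at 15 min to 8.83 at 120 min in Man-Su, where the normal arrays lie at 8.64 and 8.56.

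The ordered features as a group went the same way in the Shin-Hong series more often than features in general. Of the 316 upward features, 275 (87.0%) had a positive late minus early difference in the arrays labelled Shin-Hong, against 48.3% of all features. Their median difference there was 0.63 log2 units, against -0.01 over all features. The 120 min value was at least 2-fold above the 15 min value in 142 of them (44.9%), against 2.48% of all. Of the 119 downward features, 100 (84.0%) had a negative difference, against 51.7% of all, and the median was -0.53. At least 2-fold lower at 120 than at 15 min were 45 of them (37.8%), against 4.05% of all. With the 120 min array labelled Shin-Hong left out, 240 of the 316 (75.9%) were higher at 60 min than the early mean, against 49.2% of all, and 93 of the 119 (78.2%) were lower, against 50.8%. At 60 min, 80 of the 316 (25.3%) were at least 2-fold above 15 min, against 1.17% of all, and 8 of the 119 (6.72%) at least 2-fold below, against 0.618% of all. The Shin-Hong series met the same rule of order and size in 82 of the 316 upward features (25.9%), against 1.11% of all, and in 27 of the 119 downward ones (22.7%), against 1.41%. Without its 120 min array, 15, 30 and 60 min were in upward order in 153 of the 316 (48.4%), against 21.9% of all, and in downward order in 56 of the 119 (47.1%), against 21.3%.

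No feature passed the test of a difference between the varieties. The interaction, Man-Su late minus early less the same in the arrays labelled Shin-Hong, called 0 features with limma over the 8 cold arrays (0% of all), and 1449 had an unadjusted p under 0.05. That count lay between 666, without Shin-Hong 30 min, and 6987, without Shin-Hong 60 min, when 1 of the 8 arrays was left out. It was also 718 without Shin-Hong 15 min, 3004 without Shin-Hong 120 min and 4746 without Man-Su 15 min. The interaction's median SE was 0.30 log2 units, beside a median late minus early difference of 0.85 for the upward and -0.85 for the downward Man-Su features. The Shin-Hong series tested on its own 4 arrays also called 0 (0% of all), with 3444 features at an unadjusted p under 0.05.

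**Figure D4:**
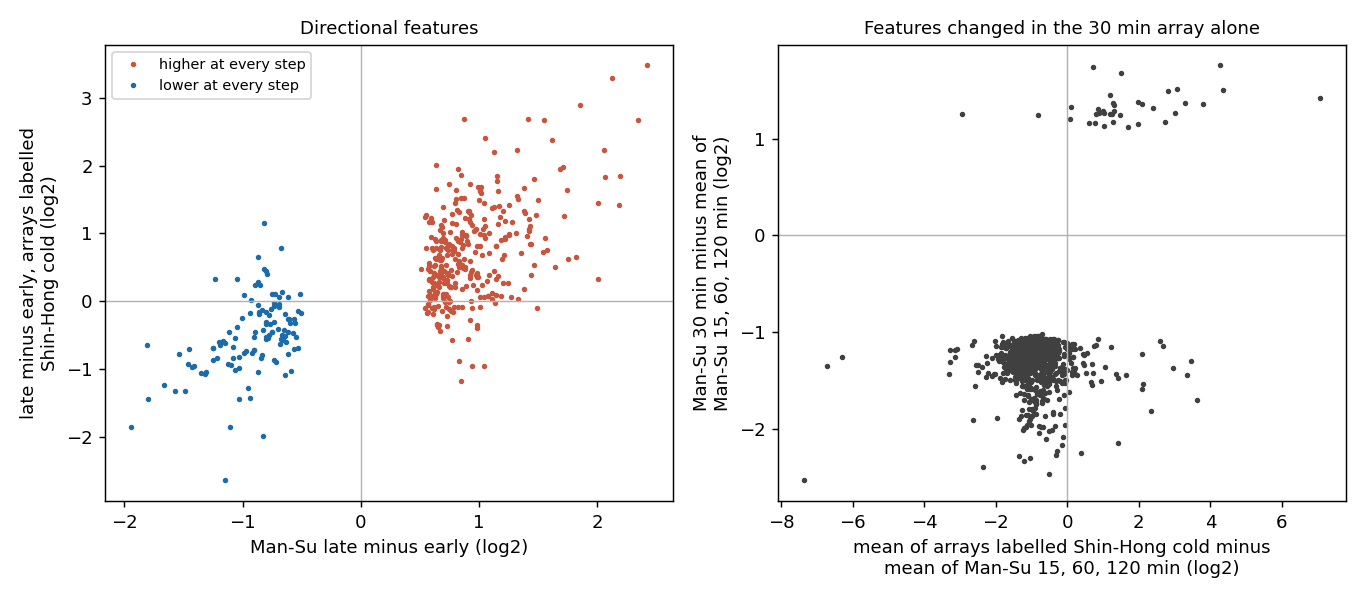
Left, late minus early in the arrays labelled Shin-Hong cold (vertical, log2 units) against late minus early in Man-Su (horizontal, log2 units), for features higher (red) or lower (blue) at every Man-Su step; 275 of the 316 red points lie above 0 and 100 of the 119 blue points below it. Right, the 30 min value less the mean of the other 3 Man-Su cold arrays (vertical, log2 units) against the mean of the arrays labelled Shin-Hong cold less that same mean (horizontal, log2 units), for features changed at 30 min alone; 827 of the 881 lower points lie left of 0.

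The largest single-array shape in the Man-Su series was a dip at 30 min. A change was assigned to 1 array alone when that array was at least 2-fold above, or below, each of the other 3 and those 3 lay within 2-fold of one another. At 30 min 881 features (1.85% of all) were low alone and 36 (0.0757%) high alone. The low features nearest the threshold lay 1.0001 log2 units (inside) and 0.9998 (outside) from their nearest other array. The high ones lay 1.0045 and 0.992 from it. At 120 min, the end of the series, 206 (0.433%) were high alone and 135 (0.284%) low alone. At 15 min 1 feature (0.0021%) was high and 41 (0.0862%) low, and at 60 min 1 (0.0021%) was high and 5 (0.0105%) low. The 881 features had medians of 8.96, 7.76, 8.92 and 8.93 log2 units over the 4 times, of which the rule holds the other 3 values within 2-fold. The low and high counts at 30 min were 951 and 143 without the 15 min array, 1135 and 87 without 60 min, and 1497 and 80 without 120 min. Of all 5275 features whose 4 values spanned at least 2-fold, the 30 min array was the lowest in 3247 (61.6%).

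The balance of low and high at 30 min changed under some scalings of the arrays and not under another. On the deposited values 96.1% of these single-array changes were low. Centring each array on its median gave 972 low and 29 high (97.1% low), with all 881 still low. Quantile normalization over the 10 arrays gave 326 low and 197 high (62.3% low). Cyclic loess over the 4 arrays, chosen after seeing the data, gave 415 low and 463 high (47.3% low). Of the 881 features, 321 remained low at 30 min alone after quantile normalization and 340 after cyclic loess. Of the 316 upward features, 272 remained ordered upward after quantile normalization and 268 after cyclic loess. Of the 119 downward features, 110 and 103 remained. The largest steps over all features were in dim signal. In the dimmest decile of features, ranked by mean signal, the median step was -0.50 log2 units from 15 to 30 min, 0.42 from 30 to 60 min and 0.03 from 60 to 120 min. In the brightest decile these medians were -0.00051, 0.0033 and -0.02. The dimmest decile held 476 of the 881 low and 27 of the 36 high features, but 12 of the 316 upward and 7 of the 119 downward ones. At or below the random-sequence control of their own array were 387 features at 30 min, against 174, 180 and 184 at 15, 60 and 120 min. The part of the brighter controls in the 30 min changes was not tested.

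**Figure D5:**
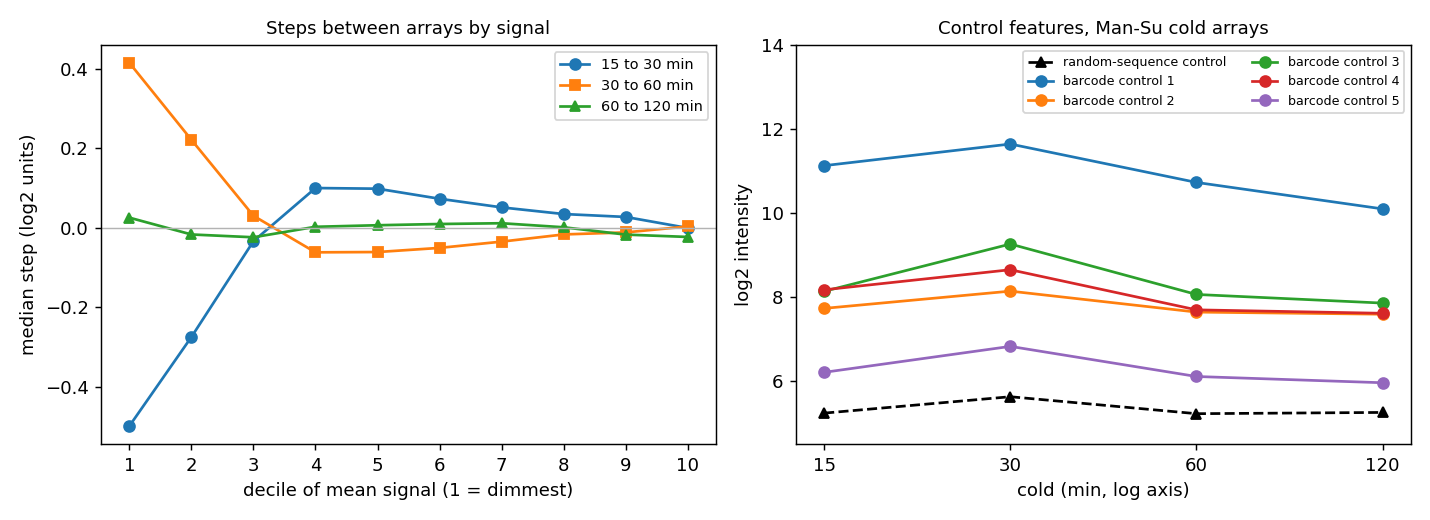
Left, median step between successive Man-Su cold arrays (vertical, log2 units) by decile of mean signal (horizontal, 1 the dimmest); the 15 to 30 min step is -0.50 in the dimmest decile and the 30 to 60 min step 0.42. Right, log2 intensity of the 5 barcode controls and the random-sequence control against cold time in min on a log axis, each point 1 array; all 6 are highest at 30 min.

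For most features changed at 30 min alone, the Shin-Hong cold mean differed from the other 3 Man-Su cold arrays in the same direction. In 827 of the 881 low features (93.9%) the mean of the arrays labelled Shin-Hong cold was below the mean of the other 3 Man-Su cold arrays, against 54.2% of all features. The dimmest decile held 54.0% of these 881, and the control levels and first decile of the 30 min array were like those of the arrays labelled Shin-Hong cold, as given above; their part in this resemblance was not tested. In 34 of the 36 high features (94.4%) it was above, against 45.8% of all. Without the 120 min array labelled Shin-Hong these were 779 (88.4%) and 34 (94.4%). The dip was rarer in the other series than over all features. In 35 of the 881 (3.97%) the 30 min array labelled Shin-Hong was below both its 15 and its 60 min neighbour, against 25.6% of all features, and in 543 (61.6%) it was above both. Of the 36 high features, 13 (36.1%) were above both there, against 31.1% of all.

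Single features show these shapes, and the 4 that follow had the widest single-array distance among those above the random-sequence control in all 4 Man-Su arrays. The deepest dip read 11.19, 8.84, 11.33 and 11.61 log2 units over the 4 times, with the 30 min array 2.35 below its nearest neighbour. In the Shin-Hong cold series the same feature read only 3.43 to 4.43, below the random-sequence control of each array. Its normal values were 3.78 under the Man-Su label and 12.44 under the Shin-Hong label. For this feature the normal pair thus differed in the opposite direction to the cold arrays of the varieties. The highest peak at 30 min read 8.83, 10.38, 8.96 and 8.29. Its values in the Shin-Hong cold series were 10.39, 11.19 and 10.94 at 15, 30 and 60 min, then 8.22 at 120 min. At the end of the series, the feature highest in the 120 min array alone read 10.06, 10.63, 10.81 and 13.90, and in the arrays labelled Shin-Hong it stayed between 8.94 and 9.46. The lowest at 120 min alone read 12.50, 12.65, 12.01 and 9.06, and its Shin-Hong values were 12.56, 12.79, 12.93 and 10.84, lowest at 120 min as well.

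Without the 30 min array, more features were in order and 1 passed the test. From 15 through 60 to 120 min, 703 features were ordered upward and 314 downward by at least 2-fold. Of the 703, the 30 min value lay between its neighbours in 316, above the 60 min value in another 316 and below the 15 min value in 71. Of the 314, it lay between them in 119, above the 15 min value in 163 and below the 60 min value in 32. In the arrays labelled Shin-Hong, 526 of the 703 (74.8%) had a positive and 267 of the 314 (85.0%) a negative late minus early difference, against 48.3% and 51.7% of all features. With the 120 min array labelled Shin-Hong also left out these were 70.1% and 72.3%, against 49.2% and 50.8%. The limma test of 60 and 120 min against 15 min alone called 1 feature higher and 0 lower. With 1 early array it assumes that the lone array varies like the late pair.

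The feature that passed that test had most of its change before 30 min. It was singled out after its values were seen and did not meet the naming rule. It read 10.07, 13.01, 14.27 and 14.19 log2 units at 15, 30, 60 and 120 min in Man-Su, against 9.27 and 9.67 in the normal arrays. It stood 2.94 log2 units higher at 30 than at 15 min and 1.26 higher again at 60 min, and its 120 min value was close to the 60 min one. Against 15 min alone the late mean was 4.16 ± 0.19 log2 units higher (SE, limma adjusted p = 0.0472). With the 30 min array among the early ones the difference was 2.69 ± 0.995 (SE, limma adjusted p = 0.923). Its values in the arrays labelled Shin-Hong cold were 10.01, 12.46, 13.57 and 14.28, higher at every step.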

How the data were processed

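Per the submitters' processing notes, the authors deposited linear intensity values per feature made with RMA (robust multi-array average: background correction, normalization between arrays and summary over probes). The sources used here do not name the software or say whether the 10 arrays were processed as 1 set. The probe counts per feature are as deposited by the authors: 46793 of 47548 features (98.4%) had 7. The 5 barcode controls and the random-sequence control, summarised over 57777 probes, were left out of all tests. The series-wide value table held the same values to within 0.005. Array number, 1 per time, limits the precision.

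The intensities were taken to log2 with no further normalization or filter. Late and early arrays were compared with limma 3.58.1 in R 4.3.3 (lmFit, eBayes), with Benjamini-Hochberg adjustment over all 47548 features. The p-values treat 15 and 30 min, and 60 and 120 min, as samples of a phase. The interaction used the 8 cold arrays and 4 residual degrees of freedom. The tests and shape rules were tried on simulated data. The features named were the 2 upward and 2 downward ones with the widest gap between nearest late and early arrays, among those ordered at every step and above the random-sequence control. The comparison, shape rules and lists were chosen with earlier results of these data known. Gene lists were not tested, as no feature has a gene name. Alternatives were other scalings, floors and filters on dim signal, other models and size thresholds, and each array left out.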

Additional observations from a re-analysis of the deposited data

Results flagged for a closer look

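In 10 checks for an array far from the other Man-Su cold arrays, over control features and quantiles of the cabbage features, 2 stood out, and chance gives about 1 in 20 independent checks. Both were the 30 min array: its random-sequence control read 5.63 log2 units, and the lowest decile of its features 8.87. Among all 10 arrays neither value was extreme, since the arrays labelled Shin-Hong cold had 5.42 to 5.74 and 8.83 to 8.97, and the arrays labelled normal had lowest deciles of 8.88 and 8.94. The 5 barcode controls are no cabbage features and entered no test. They averaged 8.90 log2 units in that array, above the 7.88 and 8.13 of the arrays labelled normal. In the other Man-Su cold arrays they averaged 7.82 to 8.27, and in the arrays labelled Shin-Hong cold 8.65 to 8.98.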

How the results depend on the processing

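The 0 calls late against early held under each alternative run, except that leaving out the 30 min array gave 1 higher feature, and the interaction called 0 under each. The range with an array left out was 0 to 1 higher and 0 to 0 lower. Each of the 4 named features kept its sign in 13 alternatives. They were chosen for a wide gap between late and early arrays, so leaving 1 array out could not turn the sign. The kept sign is therefore no support. Counts are given below for ordered upward (316), ordered downward (119), gap up (10), gap down (15), low at 30 min alone (881) and high at 30 min alone (36). A size of 1.5-fold gave 858, 501, 91, 130, 4178 and 391, and 4-fold gave 51, 15, 0, 1, 11 and 0. Low and high at 30 min alone were 326 and 197 with quantile normalization and 415 and 463 with cyclic loess. With each array centred on its median they were 972 and 29. With an array left out, fewer conditions apply: the ranges were 158 to 1170, 36 to 733, 14 to 957, 25 to 307, 951 to 1497 and 80 to 143. The lowest ordered counts, 158 and 36, came without 120 min and the highest, 1170 and 733, without 15 min. Single-array changes at 30 min have no value without that array. No analysis paired by replicate number was possible because each group has 1 array, so no groups share more than 1 replicate number. With cold time as a block, which pairs the varieties by time and was chosen after seeing the data, the interaction called 0, with 1284 at an unadjusted p under 0.05. Raising values below the random-sequence control to it left 788 low and 36 high at 30 min alone, and the filter on that control 864 and 34. These counts thus moved more under quantile normalization and cyclic loess than with that floor.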
